A study of Saccharomyces cerevisiae S288C with 18 samples.

Results

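Xrn1-sensitive unstable transcripts (XUT) are non-coding RNAs of budding yeast that build up when the exonuclease Xrn1 is missing. Here they are the rows of the count tables whose name starts with XUT, 1658 of 23521 features, of which 846 lie on the forward strand and 812 on the reverse strand. The names give the chromosome number and the strand, so that XUT_7F-347 is a forward-strand XUT of chromosome VII. Every reverse-strand XUT was listed at 0 in all 18 libraries, and the values below are those of the forward-strand XUT. Of these, 696 had a read in at least 1 library, 150 had none, and 522 had at least 10 reads in at least 3 libraries and could be tested.

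The libraries come from *Saccharomyces cerevisiae* grown to exponential phase in YPD at 30°C, with 3 replicates in each of 6 groups. Upf1-TAP, Pab1-TAP and Rpl16a-TAP, and also Lsm1-TAP, are the RNAs collected on IgG beads, from 4 L cultures, with 1 protein that carries the TAP tag (CBP-TeV-Protein A). The control purification used the untagged strain BY4741 and the same procedure, so that it holds what binds to the beads with no tagged protein. The input is the total RNA of an aliquot of extract taken just before purification. Ribosomal RNA was removed with RiboZero or Ribominus, and the sources used here do not say which of the 2 a given library received. The RNAs found with a tagged protein may be bound by it or by its partners, and a value says how much of a library an RNA takes up, not how much of it was recovered. In these bulk libraries, more molecules of a XUT and a smaller share of the other RNAs cannot be told apart.

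XUT are made by RNA polymerase II, capped and polyadenylated, and many run antisense to protein-coding genes. They reach the cytoplasm, where they are decapped and degraded from the 5′ end by Xrn1. A large share of them are targets of nonsense-mediated mRNA decay (NMD), since ribosomes that translate a short reading frame near the 5′ end stop far from the 3′ end. The RNA helicase Upf1, encoded by NAM7, is the core factor of NMD. Pab1 coats the poly(A) tail, Rpl16a belongs to the large ribosomal subunit and marks RNAs on ribosomes, and Lsm1 belongs to the Lsm1-7 ring, which promotes the decapping of RNAs with short tails.

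The features of such an RNA can be seen on TBRT, which carries the name XUT_2F-154 and is the XUT that RefSeq places on the R64 genome. It covers chr2:376610-378633 on the forward strand, 2024 bases in all, and runs antisense to TAT1, the gene of an amino acid permease. The 2 overlap over 1824 bases, 90.1% of TBRT and 98.1% of TAT1 (chr2:376574-378433, reverse strand). Its 5′ end is shown because it carries the first reading frame that a scanning ribosome would meet. From chr2:376610 to chr2:376779, forward strand of R64, with the first ATG and the stop codon of its frame in capitals, it reads as follows.
TBRT: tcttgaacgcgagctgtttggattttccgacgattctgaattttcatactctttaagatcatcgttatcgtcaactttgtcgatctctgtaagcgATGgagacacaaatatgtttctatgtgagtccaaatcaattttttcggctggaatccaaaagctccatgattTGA
The first ATG starts at base 96 and its frame ends at base 170, after 24 codons, so that nearly all of the RNA lies behind the stop codon. TBRT holds 42 ATG in all, and its longest frame from an ATG to a stop has 102 codons. Coordinates and sequences of the other XUT are not used here.

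The libraries held 2790148 to 16381719 counted reads. Reads of ribosomal RNA and of the 2 reading frames within the ribosomal DNA made up 0.0683% to 13.3% of a library, apart from 67.3% in Rpl16a-TAP replicate 3 and 41.2% in input replicate 3. These 2 libraries are also the shallowest for XUT, with 5 XUT at 10 reads or more in the first and 16 in the second, against 98 to 563 in the other 16 libraries. All 3 libraries reached 10 reads for 415 XUT with Upf1-TAP, for 220 with Pab1-TAP, for 5 with Rpl16a-TAP, for 191 with Lsm1-TAP, for 69 in the control purification and for 16 in input. Of the 522 tested XUT, 10 reached 10 reads in no library outside Upf1-TAP. XUT_16F-139 among them had 57, 39 and 19 reads in Upf1-TAP and no more than 8 in any other library. More XUT needed the Upf1-TAP libraries to pass the minimum, since 487 passed it without Upf1-TAP replicate 1 and 487 without replicate 2. The length of a XUT is not given in the files, so that levels are compared between libraries and not between XUT.

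XUT took up a larger part of the Upf1-TAP libraries than of the others. For every 10000 reads on open reading frames (ORF) there were 130, 122 and 75.5 XUT reads in replicates 1, 2 and 3 of Upf1-TAP. Pab1-TAP had 48.7, 36.2 and 60.4, and Rpl16a-TAP 10.1, 8.02 and 7.02. Lsm1-TAP had 59.4, 29.3 and 23.2, the control purification 28.4, 19.8 and 20.1, and input 12.2, 10.6 and 12.6. The 3 Upf1-TAP libraries lay above all 15 others, and the 3 Rpl16a-TAP libraries lay below all 3 input libraries. Within replicate numbers the ratio was 10.7, 11.5 and 5.99 for Upf1-TAP over input, 3.99, 3.42 and 4.79 for Pab1-TAP over input, and 0.828, 0.757 and 0.557 for Rpl16a-TAP over input. Upf1-TAP over Pab1-TAP gave 2.67 and 3.37 in replicates 1 and 2, but 1.25 in replicate 3. These shares describe the libraries, and no test was made on them.

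**Figure D1:**
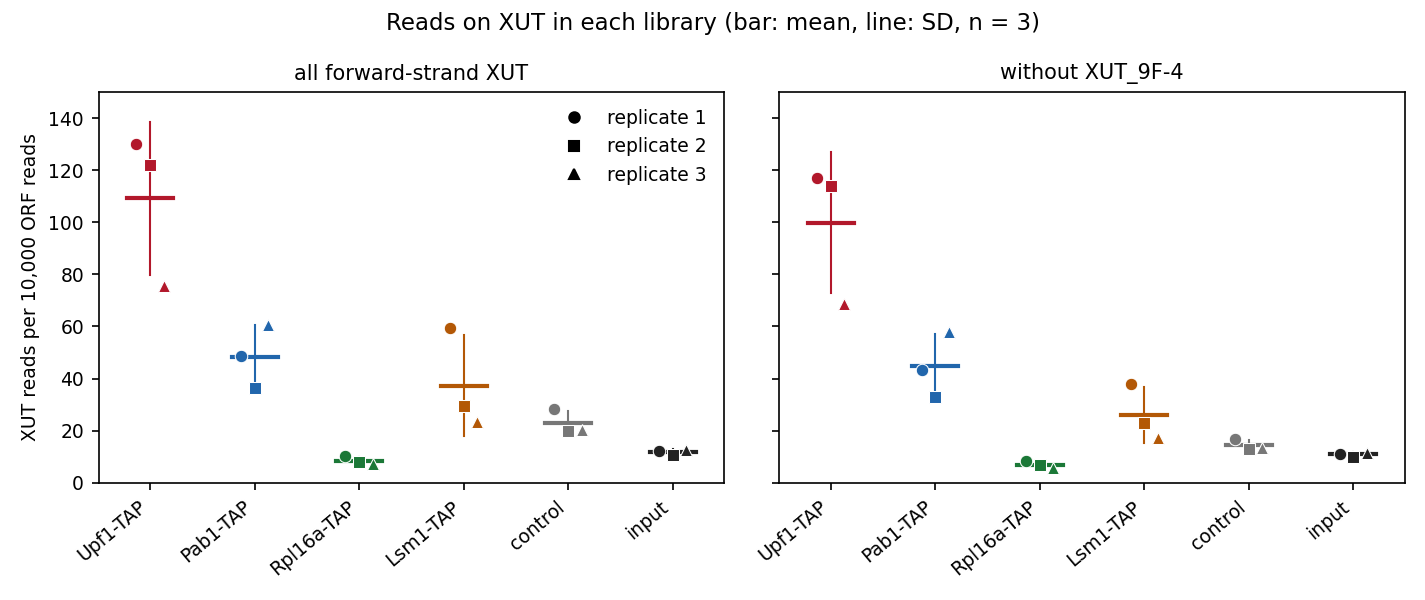
XUT reads per 10,000 ORF reads (vertical axis) in each of the 18 libraries, with all forward-strand XUT on the left and without XUT_9F-4 on the right; points are libraries, horizontal bars group means and vertical lines SDs (n = 3). Upf1-TAP runs between 75.5 and 130 and lies above every other group in both panels, while the control purification comes down to between 12.8 and 16.7 once XUT_9F-4 is left out.

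A single XUT weighs on these shares. XUT_9F-4 held 33.3% to 41.0% of the XUT reads in the control purification and 21.6% to 36.0% in Lsm1-TAP, but 6.76% to 10.0% with Upf1-TAP, 4.23% to 11.3% with Pab1-TAP, 17.6% to 18.3% with Rpl16a-TAP and 7.34% to 8.05% in input. Without it, Upf1-TAP had 117, 114 and 68.7 XUT reads per 10000 ORF reads, Pab1-TAP 43.2, 32.9 and 57.9, and Rpl16a-TAP 8.33, 6.62 and 5.74. Lsm1-TAP then had 38.0, 23.0 and 17.3, the control purification 16.7, 12.8 and 13.4, and input 11.2, 9.81 and 11.6. The order of Upf1-TAP, Pab1-TAP and Rpl16a-TAP was the same with and without it, and the ratio of the control purification to input was 1.5, 1.3 and 1.2 without it and 2.3, 1.9 and 1.6 with it.

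Single XUT were tested by the quasi-likelihood method of edgeR after TMM scaling (which centres the bulk of the features of each library), with a call at an adjusted p under 0.05 over all 12582 tested features. Levels are counts per 1000000 reads after this scaling (CPM), and differences are log2 fold changes ± standard error with n = 3 libraries a group. The scaling sets the zero of these differences. The median of all features over input was 0.27 by TMM and 2.33 by total counts for Upf1-TAP, while Pab1-TAP had 0.23 and 1.92. Rpl16a-TAP had 0.03 and 0.65, Lsm1-TAP 0.13 and 1.70, and the control purification 0.04 and 1.23. The distance of the XUT median from the median of all features hardly moved. Over input it was 1.01 by TMM and 1.00 by total counts for Upf1-TAP, while Pab1-TAP had 0.01 and −0.02. Rpl16a-TAP had −1.1 and −1.02, Lsm1-TAP −0.35 and −0.39, and the control purification −0.85 and −0.89. Directions below are therefore relative to the other RNAs of the same libraries.

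Upf1-TAP was the group in which XUT stood highest. Of the 522 tested XUT, 371 (71.1%) had their highest mean with Upf1-TAP, 62 with Pab1-TAP, 6 with Rpl16a-TAP, 32 with Lsm1-TAP, 3 in the control purification and 48 in input. The same share over all features was not worked out. The read minimum also favours XUT that are high in Upf1-TAP. There 415 XUT had 10 reads in all 3 libraries, against 5 in Rpl16a-TAP and 16 in input. Over input, 181 XUT rose and 8 fell in Upf1-TAP, while 333 did not pass the test. That is 34.7% higher and 1.53% lower, against 22.2% and 15.9% of all features, and the median log2 fold change was 1.28 for the XUT and 0.27 for all features. In the pairs of equal replicate number, 430, 454 and 425 of the 522 XUT were above input. With the replicate number as a block the counts were 250 higher and 15 lower. Without input replicate 2, 120 XUT were called. With total count scaling 472 were higher and 1 lower, where 9000 of all 12582 features were called.

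XUT_7F-347 was one of the largest increases in Upf1-TAP. It stood at 37.3, 55.6 and 96.7 CPM in Upf1-TAP, at 13.3, 12.5 and 48.5 CPM in Pab1-TAP, at 4.43, 2.17 and 0 CPM in Rpl16a-TAP, at 6.43, 6.01 and 5.54 CPM in Lsm1-TAP, at 4.40, 4.84 and 11.1 CPM in the control purification and at 1.24, 2.77 and 4.07 CPM in input. All 3 Upf1-TAP libraries and all 3 Pab1-TAP libraries lay above every input library. The log2 fold change was 4.68 ± 0.71 for Upf1-TAP over input (adjusted p = 0.000117) and 3.21 ± 0.62 for Upf1-TAP over the control purification (adjusted p = 0.00122), and each of these calls was also made without any 1 of the 6 libraries.

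Some XUT that rose with Upf1 had hardly any reads in input. XUT_4F-340 had 70 reads in the 3 Upf1-TAP libraries together and 0 in the 3 input libraries, and was at least 4.26-fold higher in Upf1-TAP when the input is set to a floor of 3 reads. XUT_7F-267 stood at 2.08, 3.44 and 5.18 CPM in Upf1-TAP, against 0, 0.154 and 0 CPM in input (5.11 ± 0.92, adjusted p = 0.000402). XUT_4F-711 stood at 4.45, 2.77 and 1.02 CPM in Upf1-TAP, against 0.310, 0 and 0 CPM in input (4.67 ± 1.07, adjusted p = 0.0026). In all 3 the groups did not overlap, and their levels in input rest on very few reads. They were also seen with Pab1. In Pab1-TAP XUT_4F-340 stood at 1.52, 0.943 and 0.898 CPM, XUT_7F-267 at 0.569, 1.21 and 0.898 CPM and XUT_4F-711 at 1.27, 1.08 and 0.359 CPM. XUT_3F-65 is better covered, at 49.1, 33.6 and 33.4 CPM in Upf1-TAP and 6.21, 5.53 and 4.07 CPM in input (2.83 ± 0.44, adjusted p = 0.000144).

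**Figure D2:**
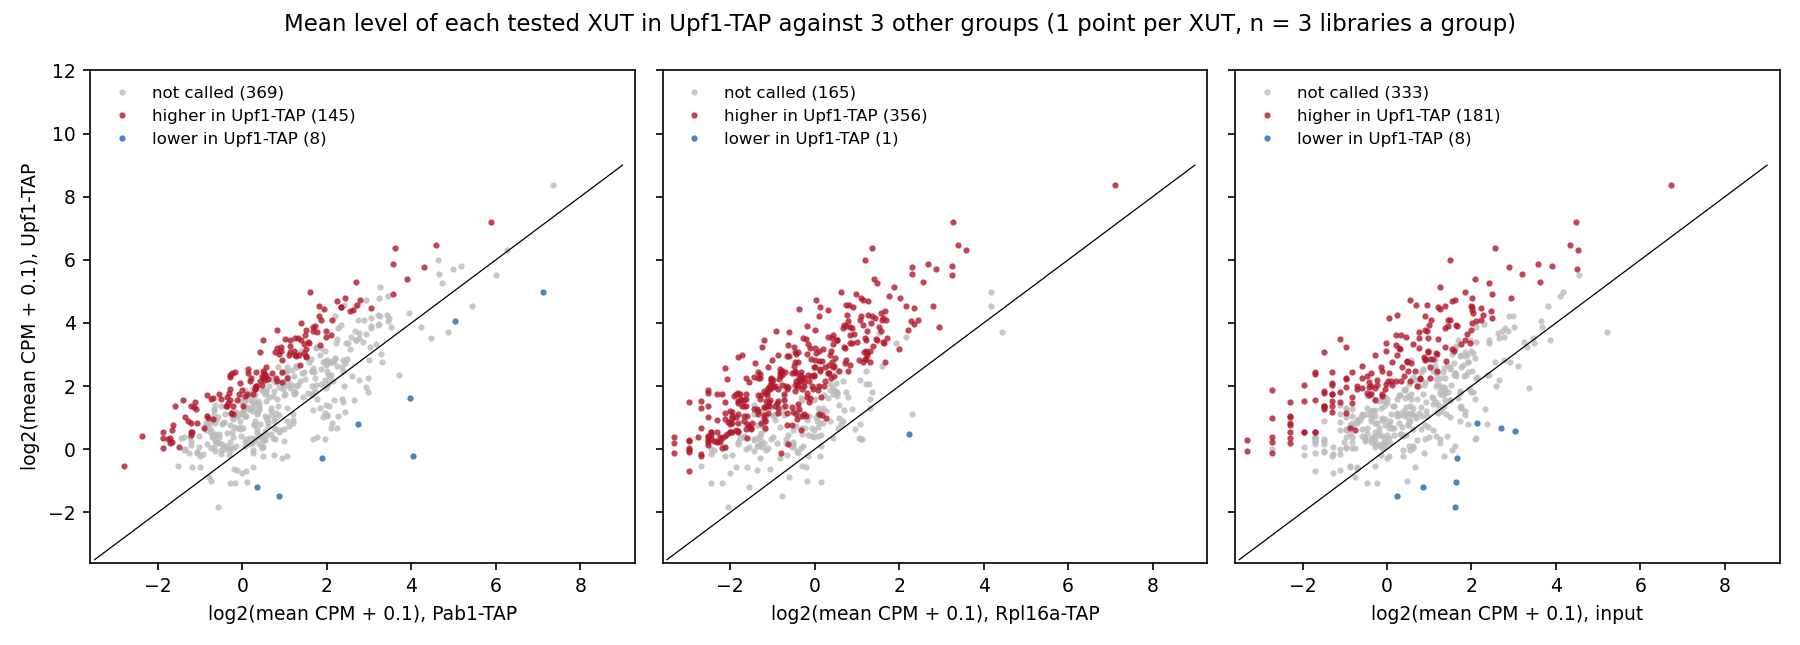
Mean level of each of the 522 tested XUT in Upf1-TAP (vertical axis) against Pab1-TAP, Rpl16a-TAP and input (horizontal axes), as log2 of the mean CPM of 3 libraries plus 0.1; the line marks equal levels and colours mark the calls. Most points lie above the line in each panel, with 145, 356 and 181 XUT called higher in Upf1-TAP and 8, 1 and 8 called lower.

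Against the control purification the shift was larger. In Upf1-TAP 324 XUT rose over the control purification and 2 fell, which is 62.1% and 0.383% of those tested, against 19.8% and 13.9% of all features. The median log2 fold change was 2.15 for the XUT and 0.07 for all features. Without control replicate 2, 210 XUT were called. XUT_13F-333 and XUT_7F-144 had the largest fitted changes, with 166 and 133 reads in the 3 Upf1-TAP libraries together and 0 in the 3 control libraries, so that they were at least 15.3-fold and 12.3-fold higher in Upf1-TAP. For XUT_7F-144 most of these reads lie in replicates 1 and 2, at 2.66 and 3.04 CPM, against 0.0785 CPM in replicate 3. Only 4 omissions of 1 library left XUT_13F-333 enough reads for this test, and it was called in each. The omissions that left too few were of Upf1-TAP libraries, so that the call could not be checked without these. Over input XUT_13F-333 was at 2.78 in Upf1-TAP (adjusted p = 0.0274). That call was lost without input replicate 1 (adjusted p = 0.0872), 2 (0.0846) or 3 (0.0557). XUT_9F-25 was 1 of the 2 that fell, at 0.387, 0.554 and 0.236 CPM in Upf1-TAP and 1.20, 0.691 and 3.65 CPM in the control purification (−2.15 ± 0.70, adjusted p = 0.0249), and the call was lost without Upf1-TAP replicate 1 (adjusted p = 0.0753) or 3 (0.0606) or control replicate 3 (0.275) and with total count scaling (0.214).

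Rpl16a-TAP gave the widest contrast. Upf1-TAP was higher than Rpl16a-TAP for 356 XUT and lower for 1, which is 68.2% and 0.192%, against 24.1% and 17.5% of all features, with a median of 2.39 for the XUT and 0.13 for all features. The replicate block gave 429 higher and 3 lower. Without Rpl16a-TAP replicate 2, 223 XUT were called. XUT_7F-64 stood at 34.2, 37.4 and 22.7 CPM in Upf1-TAP, against 1.80, 1.08 and 1.42 CPM in Rpl16a-TAP (4.46 ± 0.67, adjusted p = 0.00014). XUT_4F-711 had the largest fitted change in this comparison among those with a read in both groups (5.50 ± 1.04, adjusted p = 0.000662). XUT_15F-286 had 70 reads in Upf1-TAP and 0 in Rpl16a-TAP, and was at least 7.92-fold higher, with its call lost without Rpl16a-TAP replicate 2 (adjusted p = 0.0547).

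Upf1-TAP and Pab1-TAP differed as well. Upf1-TAP was higher for 145 XUT and lower for 8, which is 27.8% and 1.53%, against 12.9% and 10.5% of all features, with a median of 1.13 for the XUT and 0.04 for all features. With the replicate number as a block the counts were 255 higher and 14 lower, and the count came to 70 or 73 without Upf1-TAP replicate 1 or 2, to 71 or 100 without Pab1-TAP replicate 2 or 3, and to 280 without replicate 3 of every group. Replicate 3 stood apart, since 454 and 469 XUT were higher in Upf1-TAP in replicates 1 and 2 and 347 in replicate 3. XUT_7F-64 was at 34.2, 37.4 and 22.7 CPM in Upf1-TAP and at 4.05, 2.78 and 1.98 CPM in Pab1-TAP (3.39 ± 0.58, adjusted p = 0.000999), with no overlap. XUT_4F-207 stood at 3.19, 3.48 and 1.88 CPM in Upf1-TAP and at 0.253, 0.224 and 0.359 CPM in Pab1-TAP (3.4 ± 0.60, adjusted p = 0.00121). Both calls were also made without any 1 of the 6 libraries.

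A few XUT went the other way and were lower with Upf1 than with Pab1. XUT_10F-85 stood at 0.338, 0.356 and 0.0785 CPM in Upf1-TAP, against 1.71, 2.02 and 1.44 CPM in Pab1-TAP (−2.62 ± 0.58, adjusted p = 0.00402). XUT_10F-42 stood at 0.532, 0.514 and 1.26 CPM in Upf1-TAP, against 3.10, 4.98 and 40.8 CPM in Pab1-TAP (−4.41 ± 1.01, adjusted p = 0.00508). The groups did not overlap for either of them. XUT_10F-42 was also called without any 1 of the 6 libraries, and XUT_10F-85 in the 4 of these omissions that left it enough reads. The size of the second rests on Pab1-TAP replicate 3.

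With Pab1, the median of the tested XUT stood close to the bulk of the RNAs, and a small group of them rose. Other measures stood higher. XUT reads per ORF read were 3.99, 3.42 and 4.79 times those of input, as given above. The 16 XUT with at least 10 reads in each library compared had a median log2 enrichment 1.11 above that of ORF. Only 16 XUT had 10 reads in all 3 input libraries, so that most values over input rest on few reads. In Pab1-TAP 43 XUT rose over input and 11 fell, which is 8.24% and 2.11% of those tested, near the 9.89% and below the 7.89% of all features. The median log2 fold change was 0.24 for the XUT and 0.23 for all features. With the replicate number as a block the counts were 69 higher and 26 lower. Total count scaling gave 266 and 0, where 7902 of all 12582 features were called. Without Pab1-TAP replicates 1 and 3 the count came to 35 and 33, and without input replicates 1 and 2 to 15 and 18. In the pairs of equal replicate number, 275, 289 and 381 XUT were above input.

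XUT_16F-86 was the largest of the increases with Pab1 that had reads in input. It stood at 3.73, 3.28 and 4.85 CPM in Pab1-TAP, against 0.310, 0.307 and 0 CPM in input (3.78 ± 0.78, adjusted p = 0.0038). It was also at 5.51, 4.90 and 4.87 CPM in Upf1-TAP, and at no more than 0.952 CPM in any library of Rpl16a-TAP, Lsm1-TAP, the control purification or input. XUT_7F-347 and XUT_3F-65, described above for Upf1, rose with Pab1 by 3.31 ± 0.69 (adjusted p = 0.00403) and 2.26 ± 0.44 (adjusted p = 0.00262). The calls of these 3 XUT over input were also made without any 1 of the 6 libraries. Over the control purification XUT_7F-347 was at 1.85 in Pab1-TAP (adjusted p = 0.0415). This call was lost without Pab1-TAP replicate 3 (0.92, adjusted p = 0.276) or control replicate 1 (0.124) or 2 (0.154). XUT_16F-86 and XUT_3F-65 were at 2.81 (adjusted p = 0.00642) and 2.56 (0.0015) there, and were called in every omission. XUT_4F-340, with 50 reads in Pab1-TAP and 0 in input, was at least 4.09-fold higher in Pab1-TAP, and its call was lost without input replicate 1 (adjusted p = 0.051) or 2 (0.0991).

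Other calls with Pab1 depended on a single library. XUT_9F-2 stood at 34.5, 36.5 and 342 CPM in Pab1-TAP, against 15.8, 8.61 and 29.5 CPM in input, and held 13.1% of all XUT reads of Pab1-TAP replicate 3, where it had the most reads of any XUT. Its log2 fold change was 3.01 ± 0.79 (adjusted p = 0.015) and came to 1.07 (adjusted p = 0.207) without that library, and the call was also lost without input replicate 1 (0.0683) or 2 (0.0846). XUT_6F-22 was at 0.886, 1.57 and 6.82 CPM in Pab1-TAP and at 0.310, 0.461 and 0 CPM in input (2.97 ± 0.97, adjusted p = 0.0419), and came to 1.75 (adjusted p = 0.169) without the same library. It was also not called without any 1 of the 3 input libraries (adjusted p = 0.13, 0.131 and 0.0708 for replicates 1, 2 and 3). Pab1-TAP replicate 3 was the highest of all 18 libraries for 66 XUT, and replicates 1 and 2 for 4 and 6. For XUT_9F-2 and XUT_6F-22 the Pab1-TAP replicates 1 and 2 still lay above all input libraries. Pab1-TAP replicate 3 also held 13.3% ribosomal RNA, against 0.0683% and 0.0850% in replicates 1 and 2, and the part of this in the XUT values was not tested.

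Against the other purifications the shift of XUT with Pab1 was wider. In Pab1-TAP 107 XUT rose over the control purification and 5 fell, which is 20.5% and 0.958%, against 8.24% and 8.08% of all features, with a median of 1.14 for the XUT and 0.19 for all features. Without control replicates 2 and 3 the count came to 44 and 58. XUT_15F-5 stood at 3.29, 3.28 and 8.80 CPM in Pab1-TAP, against 0.200, 0.346 and 0.183 CPM in the control purification (4.28 ± 0.77, adjusted p = 0.00211). XUT_15F-1 stood at 2.53, 1.26 and 4.31 CPM in Pab1-TAP, against 0, 0 and 0.365 CPM in the control purification (4.27 ± 0.93, adjusted p = 0.00574). Neither overlapped between the groups, and both calls were also made without any 1 of the 6 libraries. The control purification itself was below input, at −3.21 for XUT_15F-5 (adjusted p = 0.0145) and −4.03 for XUT_15F-1 (0.0117). These 2 calls were lost without input replicate 2 (adjusted p = 0.118 and 0.0756). The low levels in the control purification thus enter the changes of both XUT in Pab1-TAP. Both had about the level of Pab1-TAP in Upf1-TAP too, at 4.88, 8.18 and 7.77 CPM for XUT_15F-5 and 4.40, 6.29 and 2.91 CPM for XUT_15F-1.

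Pab1-TAP was higher than Rpl16a-TAP for 121 XUT and lower for 1, which is 23.2% and 0.192%, against 7.89% and 6.34% of all features, with a median of 1.26 for the XUT and 0.17 for all features. The replicate block gave 207 higher and 1 lower. Total count scaling gave 267 and 0, where 3709 of all 12582 features were called. The count came to 69 and 35 without Rpl16a-TAP replicates 1 and 2. XUT_15F-9 stood at 2.78, 2.65 and 5.03 CPM in Pab1-TAP, against 0, 0.167 and 0 CPM in Rpl16a-TAP (4.98 ± 0.82, adjusted p = 0.00123). XUT_3F-65 was at 15.1, 17.8 and 45.8 CPM in Pab1-TAP and at 3.46, 3.17 and 1.42 CPM in Rpl16a-TAP (3.10 ± 0.46, adjusted p = 0.000764). Both calls were also made without any 1 of the 6 libraries.

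With Rpl16a, XUT were lower than in input. In Rpl16a-TAP 1 XUT rose over input and 41 fell, which is 0.192% and 7.85% of those tested, against 5.61% and 4% of all features. The median log2 fold change was −1.07 for the XUT and 0.03 for all features. With the replicate number as a block, 6 were higher and 121 lower. Total count scaling gave 3 and 8, where 1079 of all 12582 features were called. The count was 12 and 5 without Rpl16a-TAP replicates 1 and 2, 13 and 8 without input replicates 1 and 2, and 136 without replicate 3 of every group. In replicates 1 and 2, 415 and 411 of the 522 XUT were below input, whereas in replicate 3, which holds 525 XUT reads in Rpl16a-TAP and 958 in input, 218 were below, 121 above and 183 had no read in either.

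XUT_7F-163 had the largest decrease in Rpl16a-TAP, at 0.138, 0.417 and 0 CPM, against 6.21, 11.1 and 7.12 CPM in input (−4.81 ± 0.81, adjusted p = 0.00257). It was lower over input with Upf1 as well, at 0.967, 1.30 and 1.88 CPM in Upf1-TAP (−2.59 ± 0.60, adjusted p = 0.00278), and with Pab1, at 0.949, 0.943 and 2.15 CPM in Pab1-TAP (−2.70 ± 0.62, adjusted p = 0.00703), and these 3 calls were also made without any 1 of the libraries compared. With total count scaling the decreases with Upf1 and with Pab1 were not called (adjusted p = 0.419 and 0.141). XUT_15F-453 stood at 1.11, 1.00 and 0 CPM in Rpl16a-TAP and at 5.27, 8.30 and 5.09 CPM in input (−2.73 ± 0.59, adjusted p = 0.00863), and its call was lost without Rpl16a-TAP replicate 2 (adjusted p = 0.0588) and with total count scaling (0.0611).

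The XUT that rose in Rpl16a-TAP was XUT_11F-77, at 6.37, 4.00 and 5.69 CPM, against 2.17, 1.69 and 2.04 CPM in input (1.44 ± 0.44, adjusted p = 0.0467). The groups did not overlap, but the adjusted p was between 0.0577 and 0.174 when any 1 of the 6 libraries was left out, and 0.0882 with DESeq2. This XUT was higher still in Upf1-TAP, at 19.9, 18.4 and 13 CPM (3.14 ± 0.43 over input, adjusted p = 5.08e-05), and in Lsm1-TAP, at 17.7, 7.86 and 10.8 CPM (2.64 ± 0.43 over input, adjusted p = 0.000529). It was at 4.20, 4.15 and 3.47 CPM in the control purification.

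Between Rpl16a-TAP and the control purification no XUT was called by edgeR, against 0.0556% higher and 0.246% lower of all features. At an unadjusted p under 0.05 in edgeR, 10 of 522 XUT were higher and 39 lower, against 827 and 939 of all 12582 features. The share of XUT that was lower was thus about that of all features. DESeq2 called 5 lower, and the median log2 fold change was −0.27 for the XUT and −0.03 for all features. Single XUT in Rpl16a-TAP were thus not told apart from those in the control purification by this test. The share of XUT reads per ORF read did differ, at 0.356, 0.405 and 0.349 times that of the control purification in replicates 1, 2 and 3. Without XUT_9F-4 it was 0.499, 0.517 and 0.428 times. Over input this share was 2.33, 1.87 and 1.6 times in the control purification. By total counts the XUT median over input was −0.36 for Rpl16a-TAP and 0.35 for the control purification.

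The control purification, which holds no tagged protein, had its own pattern. Over input, 4 XUT rose and 41 fell, which is 0.766% and 7.85%, against 9.21% and 6.96% of all features, with a median of −0.82 for the XUT and 0.04 for all features. With total count scaling 24 were higher and 2 lower, where 3938 of all 12582 features were called, and the XUT median was 0.35. The count was 8 and 13 without control replicates 2 and 3 and 12 and 6 without input replicates 1 and 2. XUT_13F-213 fell to 0, 0 and 0.365 CPM in the control purification, against 4.03, 3.84 and 1.02 CPM in input (−4.62 ± 0.96, adjusted p = 0.00466). It was below input with every tagged protein too, with −4.08 ± 0.76 for Upf1-TAP (adjusted p = 0.000507), −2.40 ± 0.70 for Pab1-TAP (0.0241), −3.77 ± 0.89 for Rpl16a-TAP (0.0139) and −3.4 ± 0.76 for Lsm1-TAP (0.00438). The calls in Pab1-TAP and Rpl16a-TAP were lost without replicate 1 of these groups (adjusted p = 0.0876 and 0.0727), and the call in Pab1-TAP also with total count scaling (0.322). All of these comparisons share the same 3 input libraries, so that they are not independent of each other. Of the 6 omissions of 1 library, only 4 left this XUT enough reads for a test, and only 3 for Pab1-TAP over input.

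XUT_9F-4, the XUT with the most reads, was high with no tag. It stood at 744, 403 and 400 CPM in the control purification, against 126, 112 and 78.4 CPM in input (2.28 ± 0.45, adjusted p = 0.00342). Lsm1-TAP had 1000, 380 and 294 CPM (2.40 ± 0.45 over input, adjusted p = 0.00149), and Upf1-TAP 441, 305 and 255 CPM (1.65 ± 0.44 over input, adjusted p = 0.00687). These 3 groups lay above all input libraries and overlapped one another, and the 3 calls were also made without any 1 of the libraries compared. Pab1-TAP, at 218, 164 and 110 CPM, was below the control purification (−1.65 ± 0.44, adjusted p = 0.0169), a call that was lost without Pab1-TAP replicate 2 (adjusted p = 0.052) or 3 (0.0679), without control replicate 1 (0.074) and with total count scaling (0.245).

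XUT_1F-89, XUT_15F-479 and XUT_1F-12 were the other 3 XUT that rose in the control purification. XUT_1F-89 stood at 7.01, 1.56 and 3.65 CPM in the control purification and at 0.621, 0.461 and 0 CPM in input (3.11 ± 0.87, adjusted p = 0.0226). XUT_15F-479 stood at 3.20, 4.32 and 4.56 CPM in the control purification and at 1.24, 1.08 and 1.02 CPM in input (1.83 ± 0.52, adjusted p = 0.0251), and XUT_1F-12 at 9.81, 11.4 and 7.48 CPM in the control purification and at 0.931, 4.46 and 3.05 CPM in input (1.72 ± 0.55, adjusted p = 0.0418). None of the 3 overlapped between the groups. Each of these calls was lost without 1 of several libraries, 3 for XUT_1F-89 (adjusted p of up to 0.108, without input replicate 2), 4 for XUT_15F-479 (up to 0.114, without input replicate 2) and 5 for XUT_1F-12 (up to 0.176, without input replicate 1).

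With Lsm1, XUT went both ways. In Lsm1-TAP 30 XUT rose over input and 34 fell, which is 5.75% and 6.51%, below the 13.1% and 9.76% of all features, with a median of −0.21 for the XUT and 0.13 for all features. The replicate block gave 56 higher and 71 lower. The balance turned with the scaling, to 172 higher and 1 lower by total counts, where 6749 of all 12582 features were called. It also turned with the libraries, since the count was 20 (12 higher) without Lsm1-TAP replicate 1, 47 (34 higher) without Lsm1-TAP replicate 3, and 34 (19 higher) and 21 (15 higher) without input replicates 1 and 2, and 115 (59 higher) without replicate 3 of every group. XUT_1F-89 stood at 19.6, 9.62 and 5.72 CPM in Lsm1-TAP, against 0.621, 0.461 and 0 CPM in input (4.63 ± 0.85, adjusted p = 0.00128). XUT_15F-89 stood at 8.81, 3.69 and 3.04 CPM in Lsm1-TAP, against 0.310, 0.461 and 0 CPM in input (3.80 ± 0.84, adjusted p = 0.00407). XUT_11F-298 stood at 8.09, 2.97 and 2.77 CPM in Lsm1-TAP, against 0.621, 0.154 and 0 CPM in input (3.93 ± 0.81, adjusted p = 0.00266). All 3 were free of overlap, replicate 1 was the highest Lsm1-TAP library for each, and the calls were also made without any 1 of the 6 libraries.

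Over the control purification no XUT was called in Lsm1-TAP by edgeR, and no feature at all, 0% of those tested in either direction. At an unadjusted p under 0.05 in edgeR, 72 of 522 XUT were higher and 3 lower, against 832 and 252 of all 12582 features. DESeq2 called 5 higher, and the median log2 fold change was 0.59 for the XUT and 0.02 for all features. XUT_15F-89, at 0.601, 1.56 and 0.365 CPM in the control purification, did not overlap with its levels in Lsm1-TAP.

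**Figure D3:**
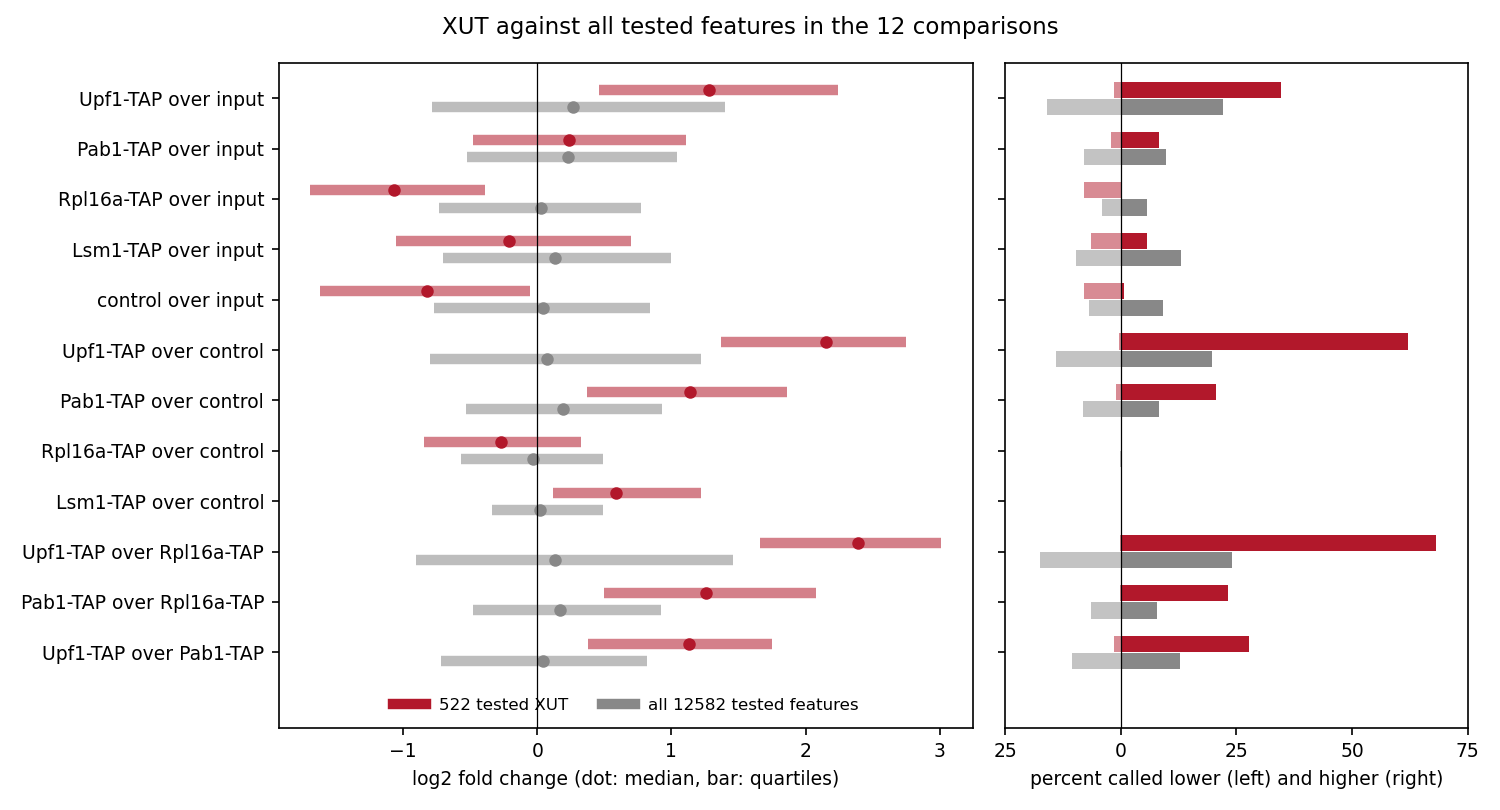
Log2 fold change of the 522 tested XUT and of all 12582 tested features in the 12 comparisons (left, dots for medians and bars for quartiles) and the percent of each called lower and higher at an adjusted p under 0.05 (right). The XUT medians run between −1.07 for Rpl16a-TAP over input and 2.39 for Upf1-TAP over Rpl16a-TAP, and the medians of all features between −0.03 and 0.27; with total count scaling all medians over input lie higher.

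The 8 XUT with the most reads show these patterns at higher counts. XUT_3F-5, second after XUT_9F-4, stood at 187, 186 and 64.9 CPM in Upf1-TAP, at 64.3, 60 and 52.1 CPM in Pab1-TAP, at 15.1, 8.09 and 5.69 CPM in Rpl16a-TAP, at 29.8, 17.4 and 12.9 CPM in Lsm1-TAP, at 17.4, 17.5 and 15.9 CPM in the control purification and at 22.3, 17.7 and 26.5 CPM in input. Upf1-TAP was above, and Rpl16a-TAP below, all input libraries. It rose over input by 2.74 ± 0.43 in Upf1-TAP (adjusted p = 0.000144) and by 1.43 ± 0.41 in Pab1-TAP (adjusted p = 0.0242). The call in Pab1-TAP was lost without Pab1-TAP replicate 1 (adjusted p = 0.0575) or 2 (0.051) or input replicate 1 (0.0786) or 2 (0.113).

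XUT_13F-375 was high with Upf1 and not with Pab1. It stood at 104, 98.1 and 62.2 CPM in Upf1-TAP, at 32.7, 24.9 and 13.8 CPM in Pab1-TAP and at 27.9, 23.5 and 9.16 CPM in input, so that Pab1-TAP and input overlapped and Upf1-TAP stood clear of both. Its log2 fold change was 2.08 ± 0.52 for Upf1-TAP over input (adjusted p = 0.00436) and 1.88 ± 0.50 for Upf1-TAP over Pab1-TAP (adjusted p = 0.0127). XUT_3F-78 was a different case, at 41.2, 58.7 and 36.8 CPM in Upf1-TAP, at 59.0, 36.9 and 96.4 CPM in Pab1-TAP and at 22.3, 20.1 and 27.5 CPM in input. Here the call over input was made for Pab1-TAP (1.47 ± 0.40, adjusted p = 0.0166), and not without Pab1-TAP replicate 3 (adjusted p = 0.0717) or input replicate 1 (0.0649) or 2 (0.0796). Upf1-TAP and Pab1-TAP overlapped for this XUT.

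XUT_3F-6 was high with both, at 61.2, 83.1 and 92.3 CPM in Upf1-TAP and 40.6, 40.5 and 148 CPM in Pab1-TAP, against 28.9, 16.4 and 23.4 CPM in input. The log2 fold change over input was 1.79 ± 0.52 in Upf1-TAP (adjusted p = 0.012, and 0.0627 without input replicate 2). In Pab1-TAP it was 1.74 ± 0.52 (adjusted p = 0.0288) and 0.83 (adjusted p = 0.215) without Pab1-TAP replicate 3, and it was also not called without input replicate 1 (0.063), 2 (0.128) or 3 (0.056). Lsm1-TAP, at 7.14, 8.82 and 7.59 CPM, lay below all input libraries (−1.53 ± 0.53, adjusted p = 0.0434), which was 0.04 (adjusted p = 0.95) with total count scaling and had adjusted p of 0.0576 to 0.148 when any 1 of the 6 libraries was left out. Over the control purification, at 12.8, 5.18 and 5.84 CPM, Upf1-TAP and Pab1-TAP were higher by 3.31 ± 0.55 (adjusted p = 0.000444) and 3.27 ± 0.55 (adjusted p = 0.00156), also without any 1 of the libraries compared.

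XUT_15F-436 and XUT_13F-218 complete the set. XUT_15F-436 stood at 53.6, 69.3 and 44.7 CPM in Upf1-TAP, at 34.5, 40.9 and 33.2 CPM in Pab1-TAP, at 9.69, 7.17 and 11.4 CPM in Rpl16a-TAP and at 15.8, 19.1 and 10.2 CPM in input. It rose over input by 1.86 ± 0.37 in Upf1-TAP (adjusted p = 0.000939), also without any 1 of the 6 libraries. XUT_13F-218 stood at 59.7, 67.0 and 30.2 CPM in Upf1-TAP, at 35.3, 34.8 and 24.8 CPM in Pab1-TAP, at 11.8, 7.00 and 2.85 CPM in Rpl16a-TAP and at 24.8, 25.5 and 17.3 CPM in input. Over Rpl16a-TAP, Upf1-TAP was higher by 2.62 ± 0.39 (adjusted p = 0.000135) for the first and by 2.71 ± 0.42 (adjusted p = 0.000179) for the second, and Pab1-TAP by 2.00 ± 0.39 (adjusted p = 0.00317) and 1.99 ± 0.42 (adjusted p = 0.00467).

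**Figure D4:**
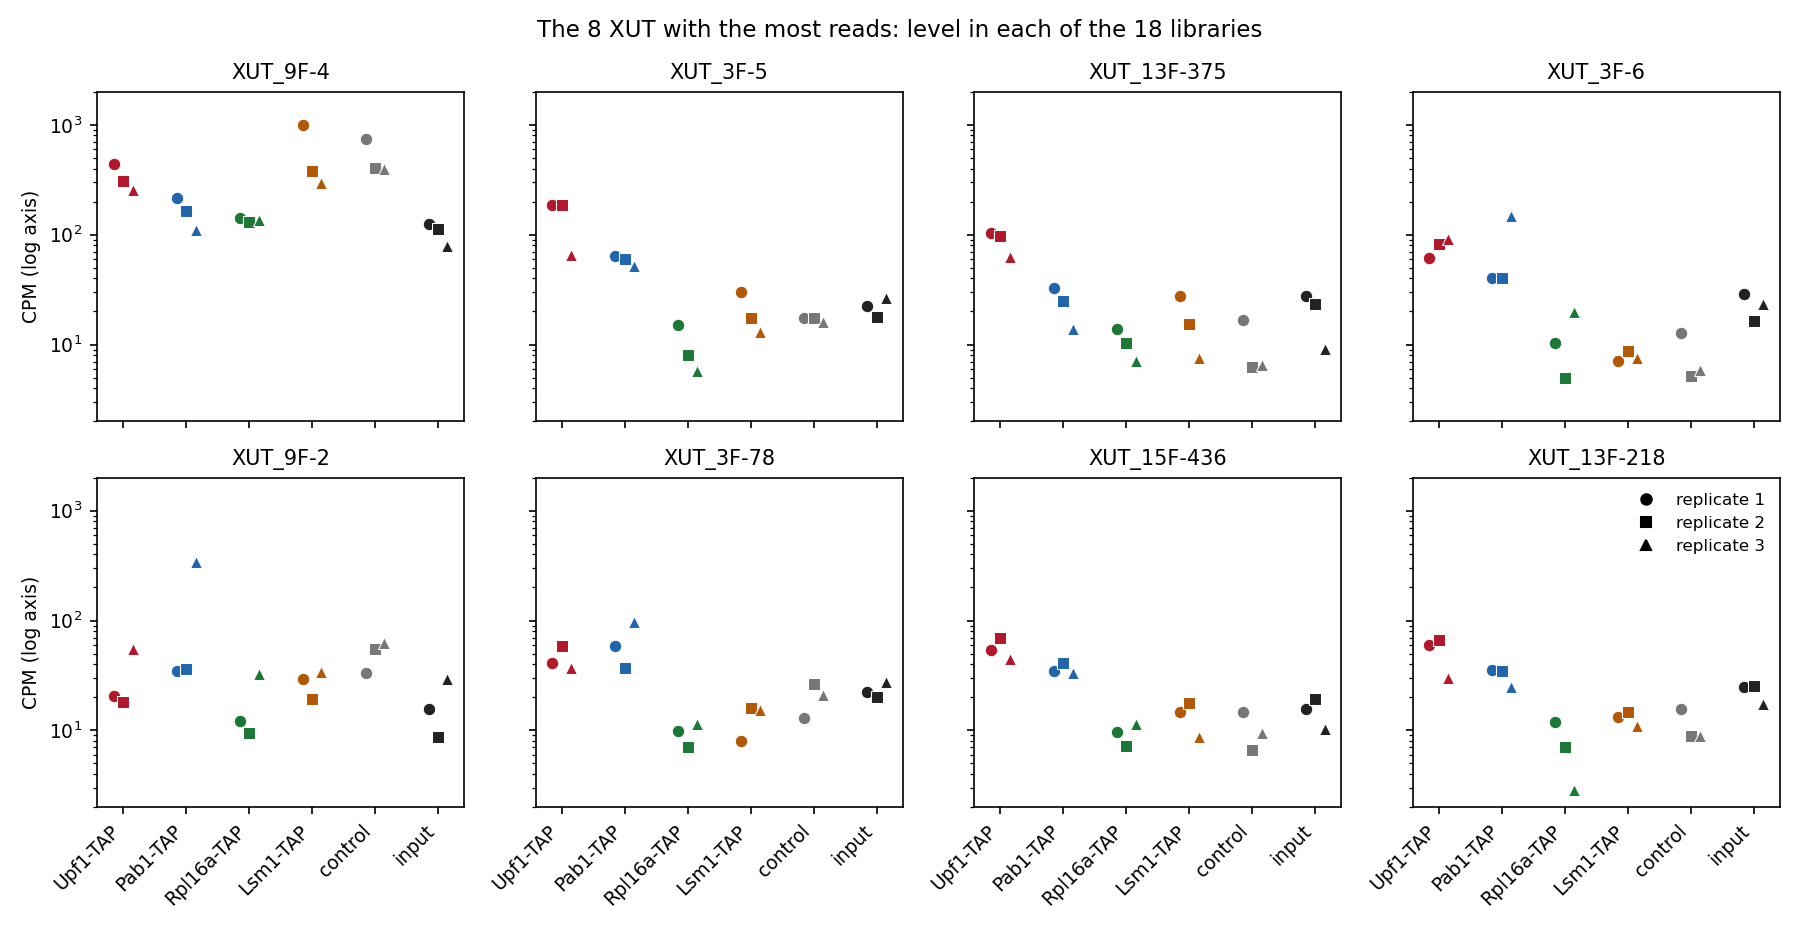
CPM on a log axis in each of the 18 libraries for the 8 XUT with the most reads, 1 panel each, with groups from left to right and a symbol for each replicate number. In 6 of the panels the Upf1-TAP libraries lie above all Rpl16a-TAP, control and input libraries; the exceptions are XUT_9F-4, which is at least as high in Lsm1-TAP and the control purification, and XUT_9F-2, which reaches 342 CPM in Pab1-TAP replicate 3.

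TBRT was among the XUT that rose with Upf1 and not with Pab1. It stood at 52.9, 41.0 and 22.8 CPM in Upf1-TAP, at 8.54, 7.27 and 3.23 CPM in Pab1-TAP, at 4.98, 6.92 and 5.69 CPM in Rpl16a-TAP, at 20.0, 14.9 and 5.72 CPM in Lsm1-TAP, at 10.8, 6.22 and 4.75 CPM in the control purification and at 18.6, 14.3 and 4.07 CPM in input. The 3 Upf1-TAP libraries lay above all 15 others. Upf1-TAP was higher than Pab1-TAP by 2.59 ± 0.54 (adjusted p = 0.00316), than Rpl16a-TAP by 2.71 ± 0.57 (adjusted p = 0.00141) and than the control purification by 2.42 ± 0.55 (adjusted p = 0.00335), and these calls were also made without any 1 of the 6 libraries. Over input the log2 fold change was 1.58 ± 0.54 (adjusted p = 0.0259), with the call lost without Upf1-TAP replicate 1 (adjusted p = 0.0964) or 2 (0.0554) or input replicate 2 (0.064) or 3 (0.0887). Pab1-TAP over input was −1.01 ± 0.54 and did not pass (adjusted p = 0.198).

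The genes beside TBRT did not follow it. TAT1, on the other strand of the same stretch, stood at 181, 126 and 226 CPM in Upf1-TAP and at 403, 255 and 195 CPM in input (−0.68 ± 0.38, adjusted p = 0.164), and was not called in any of the 12 comparisons. BAP2, another amino acid permease gene 919 bases before TBRT, stood at 114, 116 and 174 CPM in Upf1-TAP and at 502, 550 and 424 CPM in input and fell by 1.87 ± 0.29 on the log2 scale (adjusted p = 0.000146). For every 100 reads on TAT1 there were 29.2, 32.6 and 10.1 on TBRT in Upf1-TAP, and 2.08 to 10.2 in the 15 other libraries. TBRT covers 98.1% of TAT1 and runs 200 bases past its start. The sources used here do not give the strand setting of the counting, and whether the 2 strands were counted apart at this place was not tested.

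**Figure D5:**
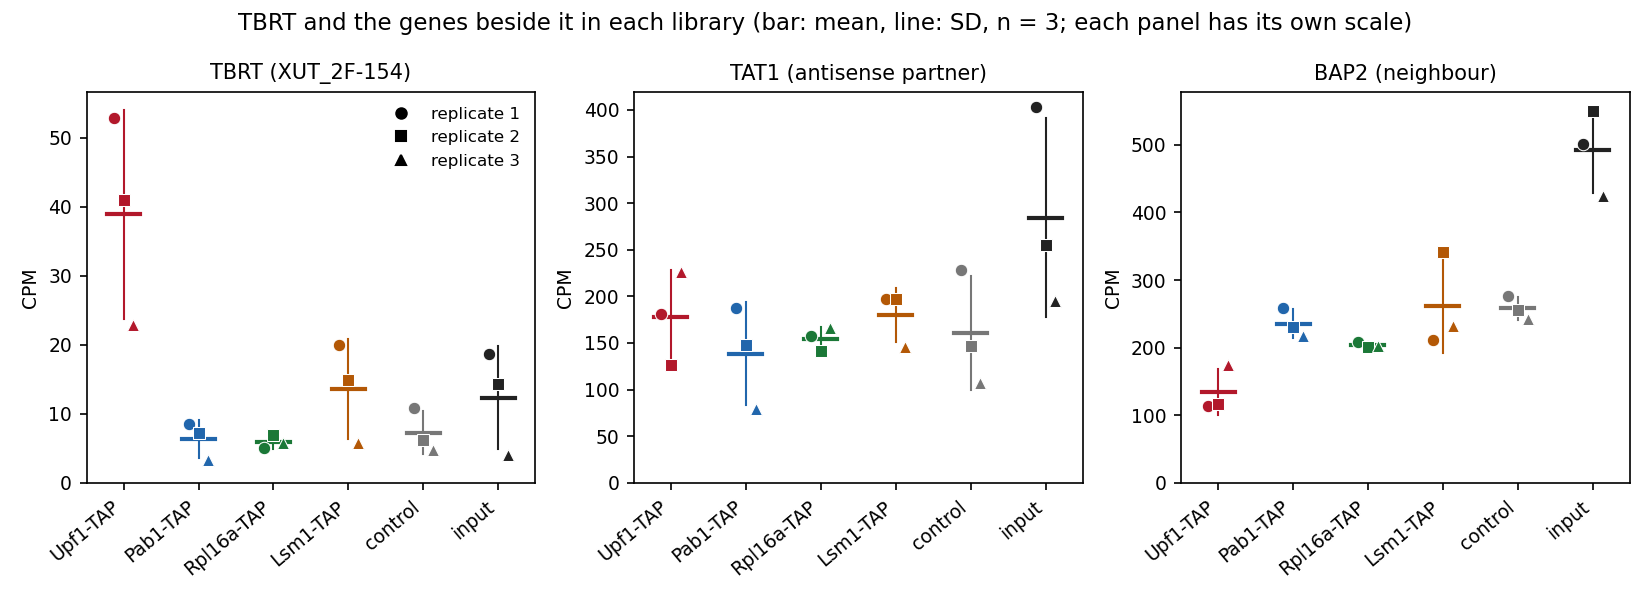
CPM of TBRT, TAT1 and BAP2 in each library, each panel with its own scale from 0; points are libraries, horizontal bars group means and vertical lines SDs (n = 3). TBRT is at 22.8 to 52.9 CPM in Upf1-TAP and at no more than 20.0 CPM elsewhere, whereas TAT1 shows no such step and BAP2 is highest in input.

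The XUT were also split by level, a measure to which the Upf1-TAP libraries themselves contribute. In 3 sets of 174 XUT by mean CPM over all libraries, Upf1-TAP over input had medians of 1.24, 1.1 and 1.6 from the lowest to the highest set, with 36, 52 and 93 XUT called higher. Pab1-TAP over input had 0.21, 0.08 and 0.50, and Rpl16a-TAP over input −0.98, −1.15 and −1.04. By chromosome, the median for Upf1-TAP over input ran between 0.58 on chromosome XII, with 28 tested XUT, and 1.74 on chromosome I, with 11. Chromosome IX held 16.4% of all XUT reads, most of them through XUT_9F-4. Chromosome III held 9.39% through its 25 forward-strand XUT, 4 of them described above.

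The other classes of unannotated transcripts give a scale for the XUT. Stable unannotated transcripts (SUT) and cryptic unstable transcripts (CUT) are also non-coding products of RNA polymerase II, and CUT are degraded in the nucleus by the exosome. For Upf1-TAP over input, the median was 1.28 for 522 XUT, 1.33 for 167 SUT and 0.22 for 274 CUT, with 34.7%, 36.5% and 16.1% called higher. For Upf1-TAP over Pab1-TAP the medians were 1.13, 0.76 and −0.02, with 27.8%, 22.2% and 10.9% called higher. For Rpl16a-TAP over input they were −1.07, −0.81 and −1.05, with 7.85%, 12% and 9.85% called lower. These are values side by side, and no test was made between the classes.

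The formula of the study's methods takes shares of the total count, averages their log2 over replicates and takes off input. The study's methods drop features with less than 10 reads and name no pseudocount, and its own comparison took XUT and SUT together. Here it was applied to the tested XUT alone, with 0.5 reads added to each count. The XUT median was then 1.17 above that of 5680 ORF in Upf1-TAP, with 1.11, 1.42 and 0.79 in replicates 1, 2 and 3. In Pab1-TAP it was 0.10, with −0.14, 0.10 and 0.58, and in Rpl16a-TAP −0.98, with −1.34, −1.26 and 0.21. The sign was the same in all 3 replicates for Upf1-TAP, and changed between replicates for Pab1-TAP and Rpl16a-TAP. For Rpl16a-TAP the value of replicate 3 rests largely on the added reads. There the median XUT level was 0 CPM, 5 XUT had 10 reads or more, and 183 had no read in Rpl16a-TAP or input. The XUT reads per ORF read of this replicate were 0.557 times those of input. With a pseudocount of 5 reads in place of 0.5 the value came to 0.06 for Upf1-TAP, −0.69 for Pab1-TAP and −0.77 for Rpl16a-TAP. Over XUT with at least 10 reads in each of the 6 libraries it came to 1.08 for Upf1-TAP and 1.11 for Pab1-TAP, with 16 XUT each, and to −0.28 for Rpl16a-TAP, with 5 XUT.

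The mRNAs of factors of RNA decay and of non-coding transcription were looked at in the same fits. The list of 37 genes covers Xrn1 and Rat1, decapping, NMD, deadenylation, the exosome and the termination of non-coding transcription, and not all of them act on XUT. In Upf1-TAP 7 of 37 rose over input, 11 fell and 19 did not pass, against 22.2% higher and 15.9% lower of all features, with a median of −0.55 for the list and 0.27 for all features. DCP2, the catalytic subunit of the decapping enzyme, rose by 1.85 ± 0.50 (adjusted p = 0.00758), and NMD4, a partner of Upf1, by 1.81 ± 0.40 (adjusted p = 0.00188). LSM5, a subunit of the Lsm1-7 ring, was at −2.95 ± 0.47 (adjusted p = 0.000154), and DBP2, an RNA helicase, at −2.54 ± 0.45 (adjusted p = 0.00036). In Pab1-TAP 2 of 37 rose, 7 fell and 28 did not pass, against 9.89% and 7.89% of all features, with a median of 0.15 for the list and 0.23 for all features. UPF3, an NMD factor, rose by 1.90 ± 0.45 (adjusted p = 0.0083, and 0.0548 without input replicate 1), and LSM4, of the same ring, by 1.6 ± 0.44 (adjusted p = 0.0177, and 0.0942 and 0.0779 without input replicates 1 and 2). PAB1 itself was at −2.55 ± 0.52 (adjusted p = 0.00342) and DBP2 at −2.23 ± 0.45 (adjusted p = 0.00314). With total count scaling LSM5 and DBP2 in Upf1-TAP (adjusted p = 0.108 and 0.309) and PAB1 and DBP2 in Pab1-TAP (0.299 and 0.28) were not called. Rpl16a-TAP had 6 higher and 0 lower over input (5.61% and 4% of all features), Lsm1-TAP 10 and 3 (13.1% and 9.76%), and the control purification 11 and 3 (9.21% and 6.96%).

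Some of these mRNAs were also above input with no tagged protein. Over input, the control purification had UPF3 at 2.68 (adjusted p = 0.0016), LSM4 at 1.35 (0.0411) and DCP2 at 1.62 (0.0343), all called higher. Set against the control purification, UPF3 and LSM4 in Pab1-TAP were at −0.77 and 0.25 (adjusted p = 0.202 and 0.732), and DCP2 in Upf1-TAP was at 0.23 (0.735), none of them called. NMD4 differed, at −1.23 (adjusted p = 0.0435) in the control purification over input and at 3.04 (0.000118) in Upf1-TAP over the control purification.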

How the data were processed

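After trimming (cutadapt 1.16) and alignment (STAR 2.7), the authors counted reads per feature by featureCounts (Subread 1.6.2), over an annotation with non-coding RNAs. The kit was stranded, but the sources used here give neither the strand setting of the counting nor its handling of overlaps. The deposited values are raw counts per feature, unscaled, in 18 libraries (6 groups of 3). A feature was kept if 3 or more libraries had 10 or more reads of it, which left 12582. All libraries were fitted together with edgeR 4.0.16 in R 4.3.3 (TMM, glmQLFit and glmQLFTest, 12 residual degrees of freedom), with Benjamini-Hochberg adjusted p-values over every tested feature. The fit was also run on simulated counts with known changes for Upf1-TAP over input. These counts had few changed features and no pairing of replicate numbers, unlike the data, and no result here rests on them. The labels number the replicates but do not say that they are separate cultures, so that p-values measure the spread between these libraries. Figures were made with Python 3.11.15 and matplotlib 3.10.9.

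The alternatives were DESeq2 1.42.0, total count scaling, no filter on low counts, the replicate number as a block, leaving out replicate 3 of every group and leaving out each library in turn. The replicate numbers were taken to pair the tagged purifications with input and with each other, because the deviations from the group means of libraries with the same number correlated at 0.171 to 0.693. They did not pair the control purification, where replicate 2 was at −0.231 to −0.354.

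XUT were named by a rule. For each comparison with input these were up to 4 XUT in each direction with the largest change among those called, with at least 60 reads in the 6 libraries and 1 sign in the 3 pairs, and up to 2 in the other comparisons. The 8 XUT with the most reads and 3 known from an earlier text (XUT_7F-347, XUT_9F-2 and XUT_3F-65) were added, and TBRT for its coordinates after its values were seen. Decay factors were named for Upf1-TAP and Pab1-TAP over input, up to 2 in each direction. The rule gave 47 XUT, not all of which are described. The members, lists and rules were chosen with earlier results of these data known. Gene names and coordinates come from the R64 assembly of RefSeq, the genome version named in the study's methods. Of the 37 decay factors, 4 with introns were taken from their exon rows.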

Additional observations from a re-analysis of the deposited data

How the results depend on the processing

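The direction of the XUT medians relative to all features was the same by TMM and by total counts in 11 of 12 comparisons, the exception being Pab1-TAP over input, whose distance is close to 0. The number of XUT called moved more. With total count scaling 473 XUT were called for Upf1-TAP over input, 266 for Pab1-TAP over input, 11 for Rpl16a-TAP over input, 173 for Lsm1-TAP over input, 26 for the control purification over input (24 higher and 2 lower), 1 for Rpl16a-TAP over the control purification and 267 for Pab1-TAP over Rpl16a-TAP. Of all 12582 features, 9000, 7902, 1079, 6749, 3938, 31 and 3709 were called in the same order. DESeq2 called 72 for Rpl16a-TAP over input and 5 each for Rpl16a-TAP and Lsm1-TAP over the control purification. Without the filter on low counts, Lsm1-TAP over input had 52 calls, 28 higher and 24 lower.

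The main fits had no block. With the replicate number as a block there were 265 calls for Upf1-TAP over input, 95 for Pab1-TAP, 127 for Rpl16a-TAP and 127 for Lsm1-TAP. It was 432 for Upf1-TAP over Rpl16a-TAP, 208 for Pab1-TAP over Rpl16a-TAP and 269 for Upf1-TAP over Pab1-TAP. Where the numbers do not pair the libraries, the block gave 102 for the control purification over input and 174, 11 and 21 for Pab1-TAP, Rpl16a-TAP and Lsm1-TAP over the control purification. The block changed none of the 221 calls of named XUT and decay factors.

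Leaving out 1 library, or replicate 3 of every group, gave between 120 and 260 calls for Upf1-TAP over input, 15 and 79 for Pab1-TAP over input, 5 and 136 for Rpl16a-TAP over input, 20 and 115 for Lsm1-TAP over input, and 6 and 105 for the control purification over input. Over the control purification Upf1-TAP had 210 to 362, Pab1-TAP had 44 to 123, Rpl16a-TAP 0 to 6 and Lsm1-TAP 0 to 7. It was 223 to 437 for Upf1-TAP over Rpl16a-TAP, 35 to 157 for Pab1-TAP over Rpl16a-TAP and 70 to 280 for Upf1-TAP over Pab1-TAP. Of 213 calls of named XUT, 107 were made in every omission of 1 library.

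The median of XUT minus that of ORF, by the study's formula with a pseudocount added here, depended on that pseudocount. With 5 reads in place of 0.5 it was 0.06 for Upf1-TAP over input, −0.69 for Pab1-TAP over input, −1.12 for Lsm1-TAP over input, 1.22, 0.40 and −0.01 for Upf1-TAP, Pab1-TAP and Lsm1-TAP over the control purification, and 0.94 and 0.17 for Upf1-TAP and Pab1-TAP over Rpl16a-TAP. Over XUT with at least 10 reads in each library compared it was 1.11 for Pab1-TAP over input, −0.67 for the control purification over input, −1.75 for Rpl16a-TAP over the control purification and 2.07 for Pab1-TAP over Rpl16a-TAP. Leaving out replicate 1, 2 or 3 gave −0.97 to −0.87 for the control purification over input and 1.06 to 1.33 for Pab1-TAP over Rpl16a-TAP. XUT_15F-453 and XUT_3F-6, lower in Lsm1-TAP than in input by TMM, were both at 0.04 with total count scaling. The cause was not tested for any of these shifts. Few reads limit XUT in Rpl16a-TAP and input, where 5 and 16 XUT had 10 reads in all 3 libraries.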
